A study of Mus musculus with 6 samples.

Results

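DNA methylation was examined at 7 genes of the smooth muscle contractile apparatus: Tagln, Acta2, Myh11, Des, Cnn1, Actg2 and Myl9. They are 7 of the 49997 genes in the RefSeq table of GRCm38.p6 and mark peritubular myoid cells. The positions described are the cytosines with 10 or more reads in all 6 libraries, from 2000 bp before to 2000 bp past each gene, so the positions were selected on their read counts. Among 1678 positions listed in any library at the 7 genes, 155 met this rule. Tagln had 8 of them, Acta2 6, Myh11 23, Des 88, Cnn1 19, Actg2 4 and Myl9 7. The position with the fewest reads that was still admitted had 10 reads in its shallowest library, in Cnn1, and the nearest one left out had 8, in Des. The gene set was chosen with earlier results of these data known, so the p-values below describe these genes and are no independent evidence.

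The samples were right testes of mature male mice of the KM strain. Hemicastrated mice had lost the left testis before puberty and gave 3 libraries, and sham-operated mice, called normal in the labels, gave the other 3. Exact ages were not given in the sources used here, and each mouse gave 1 library. Reduced representation bisulfite sequencing cuts DNA at CCGG with the enzyme MspI and reads the short fragments after bisulfite has converted unmethylated cytosines, so it samples CpG-dense DNA and leaves most of a gene unread.

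Peritubular myoid cells are flat contractile cells that wrap the seminiferous tubule. Their actin and myosin filaments contract slowly and move sperm toward the rete testis, and they share their contractile genes with vascular smooth muscle. Myoid cells are a small share of the adult testis, in which germ cells prevail, so the level measured at a myoid gene is an average over all the cells, most of which do not use the gene. In whole-tissue DNA, a change in the share of a cell type and a change of methylation within a cell type cannot be told apart. The files hold no RNA, so the cell types could not be checked by expression.

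The libraries held 64504011 to 78630942 methylation calls. Their mean level over the 952515 positions of the genome that met the same rule was between 29.5% and 30.2%, and 0.478% to 0.617% of calls on mitochondrial DNA, taken as nearly unmethylated, were methylated. The window of each gene, meaning the gene with 2000 bp on either side, was tested with edgeR's quasi-likelihood F test on methylated and unmethylated counts, and p-values were adjusted by the Benjamini-Hochberg method over 23502 windows. No window in the genome passed 0.05 (0%), and limma called 0, while 762 windows (3.24%) had an unadjusted p below 0.05 in edgeR's test. Of single positions, 706 of 814966 tested passed (0.0866%), with 0.0416% called lower and 0.045% called higher in hemicastrated mice.

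The 7 windows covered nearly the whole scale of methylation. The mean level over all 6 libraries was 2.42% at Des, 6.35% at Myl9, 17.9% at Tagln, 56.1% at Cnn1, 79.6% at Myh11, 90.5% at Actg2 and 91.3% at Acta2. Library values overlapped between Actg2 and Acta2, and between Myl9 and Tagln, where the highest Myl9 library (10.6%) exceeded the lowest Tagln library (9.57%). The other neighbours in this order did not overlap, and differences between genes were not tested. The median of all gene windows was 17.4%. No member window and none of the 146 member positions that could be tested passed the adjusted threshold. An unadjusted p below 0.05 was found at 4 positions (2.74%), against 2.62% of all tested sites in the genome.

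**Figure D1:**
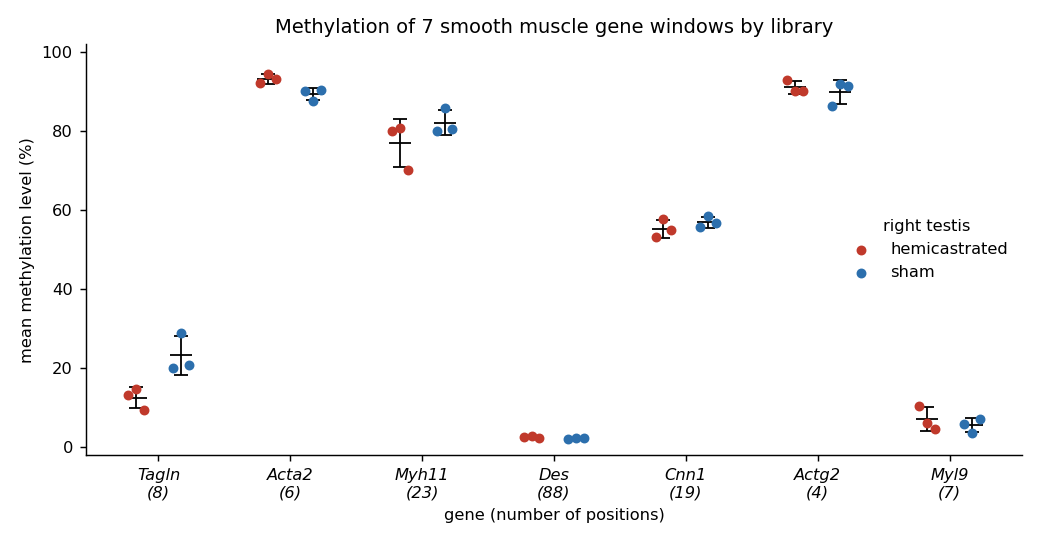
Mean methylation level of each gene window in percent, with 3 hemicastrated libraries (left of each pair) and 3 sham libraries (right) as points, and bars for mean ± SD. Tagln has 3 hemicastrated points between 9.57% and 14.9%, all below the sham points at 20% to 29.0%, while the Myh11 and Cnn1 groups overlap.

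Tagln encodes transgelin, also called SM22 alpha, an actin-binding protein of smooth muscle used as an early marker of its differentiation. The gene lies at chr9:45929628-45936058 (GRCm38), and the gene table used here gives no strand for it. Its 8 measured positions form 4 adjacent pairs, taken as both strands of 4 CpGs. They lie within 40 bp inside the gene, 89 to 128 bp from its higher-coordinate end, and also fall in the window of the neighbouring gene Sidt2. At the lower-numbered positions of the pairs each library had 1 read number throughout (13 to 26 reads), and at the higher-numbered ones the numbers differed by at most 1 read (34 to 68 reads in all). Such equal read numbers are those of shared fragments, and the 4 CpGs are not treated as independent measurements.

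Averaged over the 8 positions, Tagln had 13.3%, 14.9% and 9.57% in hemicastrated replicates 1 to 3, against 20%, 29.0% and 21.0% in sham replicates 1 to 3. The highest hemicastrated library stood below the lowest sham library. The group means were 12.6% ± 2.72 after hemicastration and 23.3% ± 4.92 after sham surgery (SD, n = 3 each), a difference of -10.7 points with a standard error of 3.25 (p = 0.1 in a two-sided exact permutation test, which cannot go lower with 3 against 3). In edgeR's test over all windows the unadjusted p was 0.00428, the 75th smallest of 23502, and the adjusted p was 0.999989, so the difference was not called. Groups that did not overlap, with hemicastrated lower, were found in 4.84% of all windows, and 0.812% of windows differed by at least as many points in either direction. The call-weighted levels, in which every call counts equally, differed by -12.1 points.

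At the first CpG of Tagln the groups overlapped on 1 strand. Position 45935930 had 19.2%, 30.8% and 9.09% in hemicastrated replicates 1 to 3, against 25.0%, 23.8% and 25.0% in sham replicates 1 to 3. Here hemicastrated replicate 2, read 13 times, was above all 3 sham libraries, and the groups overlapped. On its other strand, position 45935931 had 16.3%, 6.12% and 8.06% in hemicastrated mice, against 22.4%, 39.7% and 20.6% in sham-operated mice. That difference of -17.4 points was the largest of the 8, with an unadjusted p of 0.0108 in edgeR's single-site test and an adjusted p of 0.841. Without sham replicate 2 it was -11.3 points, smaller than the -13.0 points of position 45935958.

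At the second CpG both strands had groups that did not overlap. Position 45935958 had 11.5%, 15.4% and 9.09% in hemicastrated mice, against 20%, 23.8% and 30% in sham-operated mice. Position 45935959 had 11.6%, 8.16% and 4.84% in hemicastrated mice, against 13.2%, 30.2% and 11.8% in sham-operated mice. On this second strand hemicastrated replicate 1 and sham replicate 3 came within a fraction of a point of each other, and sham replicate 2 stood far above the rest.

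The third CpG, a few bases on, overlapped on 1 strand. Position 45935962 had 15.4%, 23.1% and 9.09% in hemicastrated mice, against 25.0%, 28.6% and 20% in sham-operated mice, so that hemicastrated replicate 2 exceeded sham replicate 3. Position 45935963 had 11.6%, 6.12% and 12.9% in hemicastrated mice, against 19.1%, 30.2% and 14.7% in sham-operated mice, with no overlap.

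The last CpG had no overlap on either strand, by a narrow margin on both. Position 45935968 had 11.5%, 23.1% and 13.6% in hemicastrated mice, against 25.0%, 23.8% and 25.0% in sham-operated mice. Position 45935969 had 9.30%, 6.12% and 9.84% in hemicastrated mice, against 10.3%, 31.7% and 20.6% in sham-operated mice.

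Over the 40 bp of Tagln that were measured, all 8 positions had the lower mean in hemicastrated mice. Of the 8, 6 had groups that did not overlap in that direction, where 2.77% of all sites in the genome do. Over all 155 positions the mean was lower in hemicastrated mice at 74, and over the genome it was lower at 43.2% of sites. That share is of all 952515 sites, of which 814966 could be tested, and sites with equal means count as not lower. Because the Tagln positions had equal read numbers, the counts of 8 and 6 describe 1 stretch of DNA and not 8 observations. Sham replicate 2 was the highest library at 5 of the 8 positions, and hemicastrated replicate 3 the lowest at 4. Adjusted p-values in edgeR's single-site test ran from 0.841 to 0.962. Wilson 95% intervals of single levels were 11.6 to 44.95 points wide, and cover counting error only.

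**Figure D2:**
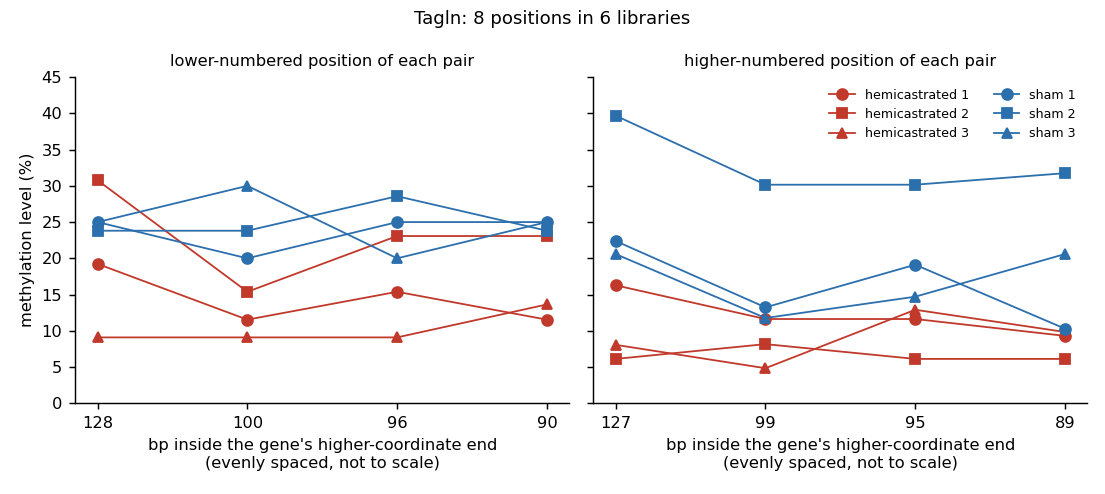
Methylation level in percent at the 8 Tagln positions, by distance in bp from the higher-coordinate end of the gene, for the lower-numbered position of each pair (left panel, 13 to 26 reads) and the higher-numbered one (right panel, 34 to 68 reads). Red lines are the 3 hemicastrated and blue lines the 3 sham libraries, and sham replicate 2 runs at 30.2% to 39.7% in the right panel, above the others.

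The strands gave the same order of groups, with a different lowest library on each. Over the 4 lower-numbered positions the levels were 14.4%, 23.1% and 10.2% in hemicastrated mice, against 23.8%, 25.0% and 25.0% in sham-operated mice. Over the 4 higher-numbered positions they were 12.2%, 6.63% and 8.91% in hemicastrated mice, against 16.3%, 32.9% and 16.9% in sham-operated mice. Hemicastrated replicate 2 was thus close to the sham libraries on the first strand and the lowest of all on the second, while sham replicate 2 stood far above the rest on the second. The differences were -8.67 points on the first strand and -12.8 points on the second. Without sham replicate 2, the other 3 positions of the second strand differed by -4.29 points at 45935959, -6.69 at 45935963 and -7.02 at 45935969, against -10.2, -11.1 and -12.5 points with all 6 libraries.

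The genes most like Tagln in their pattern over the 6 libraries, among 800 windows that ranged at least as widely, were Gm36534 (Pearson r = 0.989), Gm34062 (r = 0.986) and Gm41762 (r = 0.981). These r values rest on 6 libraries and describe the best of many windows. Gm36534 had 75.6%, 79.0% and 73.6% in hemicastrated mice, against 86.0%, 94.9% and 88.0% in sham-operated mice, so its level was far above that of Tagln.

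Lists of markers of other testis cells were read at the same window size, and none of their windows was called. The mean over 4 measured endothelial markers of 4 was 61.7% to 62.6% in hemicastrated and 63.5% to 64.0% in sham libraries, and over 2 measured macrophage markers of 4 it was 88.8% to 90.8% in hemicastrated and 91.2% to 92.3% in sham libraries. Both list means were thus lower in every hemicastrated library, as Tagln was, and whether these cells had any part in the Tagln result was not tested. Single members differed from this: all 4 endothelial genes overlapped between the groups, with Kdr 1.33 points higher in hemicastrated mice. Of the 2 macrophage genes Adgre1 (-3.04 points) did not overlap and Csf1r (-0.423 points) did. Among all single windows, 4.84% had no overlap with hemicastrated lower, and no such share was computed for list means. For germ cells 5 of 8 markers were measured, at 13.3% to 19.2% in hemicastrated and 12.6% to 15.9% in sham libraries. Sertoli cell markers, 7 of 7 measured, had 14.0% to 14.8% in hemicastrated and 14.4% to 14.7% in sham libraries, and Leydig cell markers, 5 of 6, had 61.4% to 62.4% in hemicastrated and 61.5% to 63.7% in sham libraries. Of the single Sertoli windows 2 did not overlap, both lower in hemicastrated mice: Fshr by -2.02 points and Sox9 by -0.642 points. Every measured germ cell and Leydig window overlapped. The means of these 3 lists overlapped between the groups. So did the mean over the 7 contractile genes themselves, at 46.4% to 49.6% in hemicastrated and 48.6% to 51.2% in sham libraries, with 4 genes higher and 3 lower.

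Acta2 and Actg2 encode the alpha and gamma actins of smooth muscle, the thin filaments along which myosin moves. Both were measured inside the gene only, where they were highly methylated. The 6 positions of Acta2 spanned 205 bp from position 34248354 to 34248558 of chromosome 19, within the gene at chr19:34240336-34255585. They averaged 92.1%, 94.5% and 93.2% in hemicastrated replicates 1 to 3, against 90.1%, 87.5% and 90.4% in sham replicates 1 to 3. All 3 hemicastrated libraries were above all 3 sham libraries, opposite to the direction at Tagln, and groups without overlap in that direction were found in 4.7% of all windows.

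The group means of Acta2 were 93.2% ± 1.23 in hemicastrated mice, against 89.4% ± 1.59 in sham-operated mice (SD, n = 3 each), a difference of 3.87 points. In edgeR's test the unadjusted p was 0.0575 and the adjusted p 0.999989. All 6 positions had the higher mean in hemicastrated mice, though position 34248355 differed by only 0.0834 points. Those from 34248481 to 34248558 had nearly equal read numbers within each library, so the 6 are not independent measurements. Position 34248354 had the smallest p, with 91.0%, 96.2% and 93.9% in hemicastrated mice, against 82.0%, 84.4% and 89.7% in sham-operated mice. Position 34248503 followed, with 96.8%, 95.6% and 98.2% in hemicastrated mice, against 92.5%, 90.0% and 91.2% in sham-operated mice. Neither position overlapped between groups, and both had an adjusted p of 0.841 in edgeR's single-site test.

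Actg2 was measured at 4 positions in 2 CpGs, 78 bp from first to last, inside the gene at chr6:83512909-83536251 and also inside the overlapping noncoding gene Gm38844. Its mean was 93.0%, 90.1% and 90.2% in hemicastrated mice, against 86.2%, 91.8% and 91.4% in sham-operated mice. The groups overlapped, with sham replicate 1 the lowest library. The difference of 1.27 points was smaller than its standard error of 2.04, and without sham replicate 1 it was -0.530 points.

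Cnn1 encodes calponin, which binds actin filaments and restrains the myosin motor. The gene lies at chr9:22099221-22109221, and its 19 positions fell into 3 clusters that stepped upward along the gene. The first cluster, 825 to 872 bp inside the lower-coordinate end, was nearly unmethylated at 1.28%, 5.93% and 0% in hemicastrated replicates 1 to 3, against 3.35%, 6.86% and 3.16% in sham replicates 1 to 3. The second, 1821 to 1945 bp inside, had 79.0%, 85.7% and 84.1% in hemicastrated mice, against 84.0%, 85.5% and 86.1% in sham-operated mice. The third, 6356 to 6507 bp inside, had 92.1%, 92.4% and 92.9% in hemicastrated mice, against 90.5%, 94.9% and 91.3% in sham-operated mice.

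The step between the first and the second cluster of Cnn1, from 872 to 1821 bp inside the gene, was found in every library. The groups differed by -2.05, -2.27 and 0.23 points in the 3 clusters. Over the whole window Cnn1 averaged 55.3% ± 2.32 after hemicastration and 56.9% ± 1.43 after sham surgery (SD, n = 3 each; edgeR unadjusted p = 0.784). The positions with the smallest p, 22100074 and 22100093, had 0% in all 3 hemicastrated libraries. There 0 methylated of 78 reads, pooled over the 3 mice, allows a level of up to 3.85%. This limit is 3 counts divided by the pooled reads, and leaves out the spread between mice. In sham replicates 1 to 3 position 22100074 had 5.71%, 0% and 3.57% and position 22100093 0%, 4% and 3.57%, from as few as 25 reads.

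Myh11 encodes the smooth muscle myosin heavy chain, the motor of the thick filament and a marker restricted largely to smooth muscle. Its gene is the longest of the 7, at chr16:14194527-14292188, and all 23 positions lay inside it. Outside a single cluster the positions were between 92.6% and 98.1% methylated. The cluster held 16 positions over 227 bp, from position 14267033 to 14267259, with means between 58.8% and 83.1%.

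In the Myh11 cluster the mean was 73.5%, 74.0% and 58.6% in hemicastrated replicates 1 to 3, against 73.2%, 81.8% and 74.2% in sham replicates 1 to 3. Hemicastrated replicate 3 was far below every other library and sham replicate 2 above all, while the other 4 libraries agreed within 1 point. Of the 16 positions, 15 had the lower mean in hemicastrated mice. Within each library the read numbers were nearly equal over runs of these positions, as at Tagln. The count of 15 therefore describes a few shared fragments and not 16 observations. The cluster averaged 68.7% ± 8.76 after hemicastration and 76.4% ± 4.70 after sham surgery (SD, n = 3 each).

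Over the whole window Myh11 differed by -5.17 points with a standard error of 3.91, and in edgeR's test the unadjusted p was 0.182. Without hemicastrated replicate 3 the difference was -1.71 points. The 2 positions with the smallest p had groups that did not overlap. Position 14267259 had 77.5%, 79.5% and 71.0% in hemicastrated mice, against 88.4%, 90.3% and 87.5% in sham-operated mice. Position 14267195 had 78.6%, 85.0% and 71.0% in hemicastrated mice, against 86.0%, 90.5% and 87.5% in sham-operated mice, and both had an adjusted p of 0.841 in edgeR's single-site test.

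**Figure D3:**
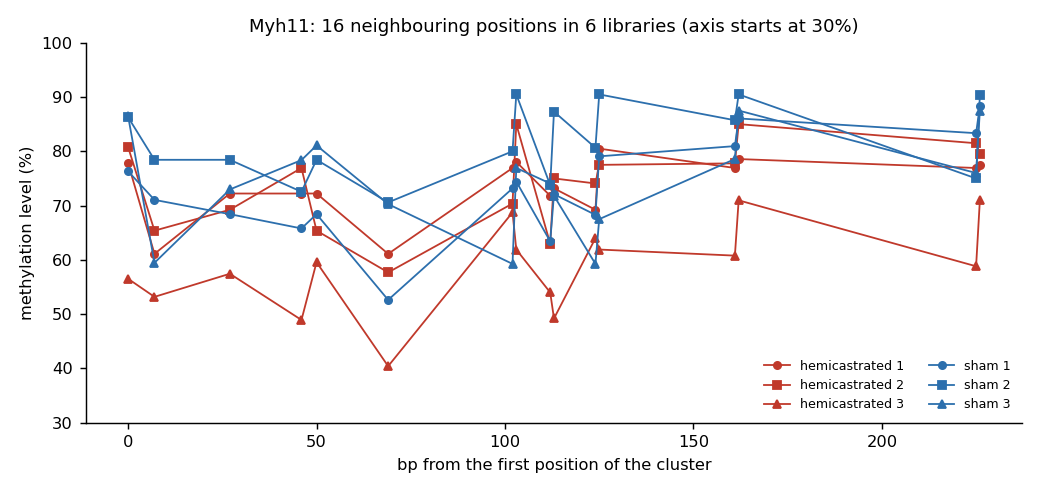
Methylation level in percent at the 16 positions of the Myh11 cluster, by distance in bp from its first position, with a line for each of 3 hemicastrated (red) and 3 sham (blue) libraries and an axis that starts at 30%. Hemicastrated replicate 3, at a cluster mean of 58.6%, runs below the other libraries at most positions.

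Myl9 encodes the regulatory light chain whose phosphorylation switches smooth muscle myosin on, and Des encodes desmin, the intermediate filament protein of muscle. Both genes are read from their lower-coordinate end, and both were nearly unmethylated near it. RefSeq promoter windows of GRCm38.p6, from 250 bases before to 50 after the transcription start, were held for 4 of the 7 genes, Acta2, Des, Cnn1 and Myl9. Those of Des (chr1:75360042-75360341, plus strand) and Myl9 (chr2:156775214-156775513, plus strand) are printed, since their measured positions lie nearest to the start. Capitals mark each CG.
Des: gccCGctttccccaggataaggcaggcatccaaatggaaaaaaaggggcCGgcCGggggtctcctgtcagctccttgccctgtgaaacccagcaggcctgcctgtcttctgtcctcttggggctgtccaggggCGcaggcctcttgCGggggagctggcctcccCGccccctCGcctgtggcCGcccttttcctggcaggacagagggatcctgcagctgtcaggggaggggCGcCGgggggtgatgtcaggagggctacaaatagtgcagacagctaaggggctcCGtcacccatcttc
Myl9: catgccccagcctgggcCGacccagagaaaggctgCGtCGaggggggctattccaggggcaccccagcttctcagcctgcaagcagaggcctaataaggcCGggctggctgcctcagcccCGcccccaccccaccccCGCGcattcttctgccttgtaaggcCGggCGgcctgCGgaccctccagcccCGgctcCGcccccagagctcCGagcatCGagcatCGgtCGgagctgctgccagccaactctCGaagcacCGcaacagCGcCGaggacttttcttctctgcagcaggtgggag

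The promoter of Myl9 held 20 CG, that of Des 11, and those of Cnn1 and Acta2 6 each, against a median of 7 over 32851 promoter windows. The MspI letters CCGG stood 3 times in Des and in Myl9, once in Acta2 (1 match) and in no place in Cnn1 (0 matches), and 52.8% of all promoter windows held at least 1 match. No measured position lay inside any of the 4 windows. The nearest was 23 bp away at Des, 157 bp at Myl9, 744 bp at Cnn1 and 6766 bp at Acta2. The CArG box, the recognition letters of serum response factor, which drives many smooth muscle genes, was searched on both strands as a palindrome. Myl9 held 1 exact match, CCTAATAAGG, as 1.63% of all windows did. With 1 letter off allowed, a looser search that 21.1% of all windows met, Myl9 held also CCTTGTAAGG, and Acta2 held CCCTATATGG and CCTTGTTTGG. These matches are a description of the letters and were not compared with binding data.

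Des had by far the most positions, 88, of which 86 were below 5%. Its first cluster of 58 positions, 72 to 334 bp past the gene start at chr1:75360292-75368579, had 1.45%, 0.870% and 0.287% in hemicastrated replicates 1 to 3, against 0.679%, 0.490% and 0.539% in sham replicates 1 to 3. The next 28 positions, 547 to 645 bp past the start, had 1.69%, 1.45% and 1.65% in hemicastrated mice, against 1.12%, 1.01% and 0.786% in sham-operated mice. The difference in the second cluster was 0.623 points, beside 0.478% to 0.617% of methylated calls on mitochondrial DNA. The last CpG, 1353 bp past the start, had 44.9%, 76.9% and 74.8% in hemicastrated mice, against 62.0%, 72.6% and 74.7% in sham-operated mice, so that methylation stepped up between 645 and 1353 bp, and hemicastrated replicate 1 was the lowest library.

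Over the whole window Des had 2.51%, 2.78% and 2.41% in hemicastrated mice, against 2.21%, 2.30% and 2.30% in sham-operated mice. The groups did not overlap, but the difference was 0.298 points and turned to -0.0503 points when every call counted equally (edgeR unadjusted p = 0.785). The 2 positions of Des with the smallest p went opposite ways. Position 75360905 had 3.08%, 6.25% and 4.88% in hemicastrated mice and 0% in all 3 sham libraries, where 0 of 149 pooled reads allows up to 2.01%. Position 75360412 had 0% in all 3 hemicastrated libraries, where 0 of 363 pooled reads allows up to 0.826%, against 1.31%, 0% and 3.45% in sham-operated mice. Both limits pool the 3 mice of a group and leave out the spread between mice.

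Myl9, at chr2:156775408-156781657, had 7 positions in 3 clusters. The 3 positions before the gene start had 0%, 7.54% and 0% in hemicastrated replicates 1 to 3, against 3.51%, 0% and 7.91% in sham replicates 1 to 3, from at most 21 reads. The CpG 262 bp inside the gene had 8.67%, 2.53% and 3.53% in hemicastrated mice, against 0%, 1.32% and 8.77% in sham-operated mice. Its lower-numbered position 156775670, read at least 108 times, had 10.2%, 0.893% and 4.63% in hemicastrated mice, against 0%, 0% and 4.39% in sham-operated mice (edgeR unadjusted p = 0.0201, adjusted p = 0.841). Here hemicastrated replicate 1 stood out and the groups overlapped.

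Near the other end of Myl9, 275 to 377 bp inside it, 2 positions had 28.3%, 7.69% and 12.6% in hemicastrated mice, against 15.3%, 11.7% and 4.55% in sham-operated mice. The Myl9 window averaged 7.11% ± 3.08 after hemicastration and 5.59% ± 1.76 after sham surgery (SD, n = 3 each; edgeR unadjusted p = 0.204). Without hemicastrated replicate 1, its highest library, the difference of 1.52 points was -0.206 points.

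**Figure D4:**
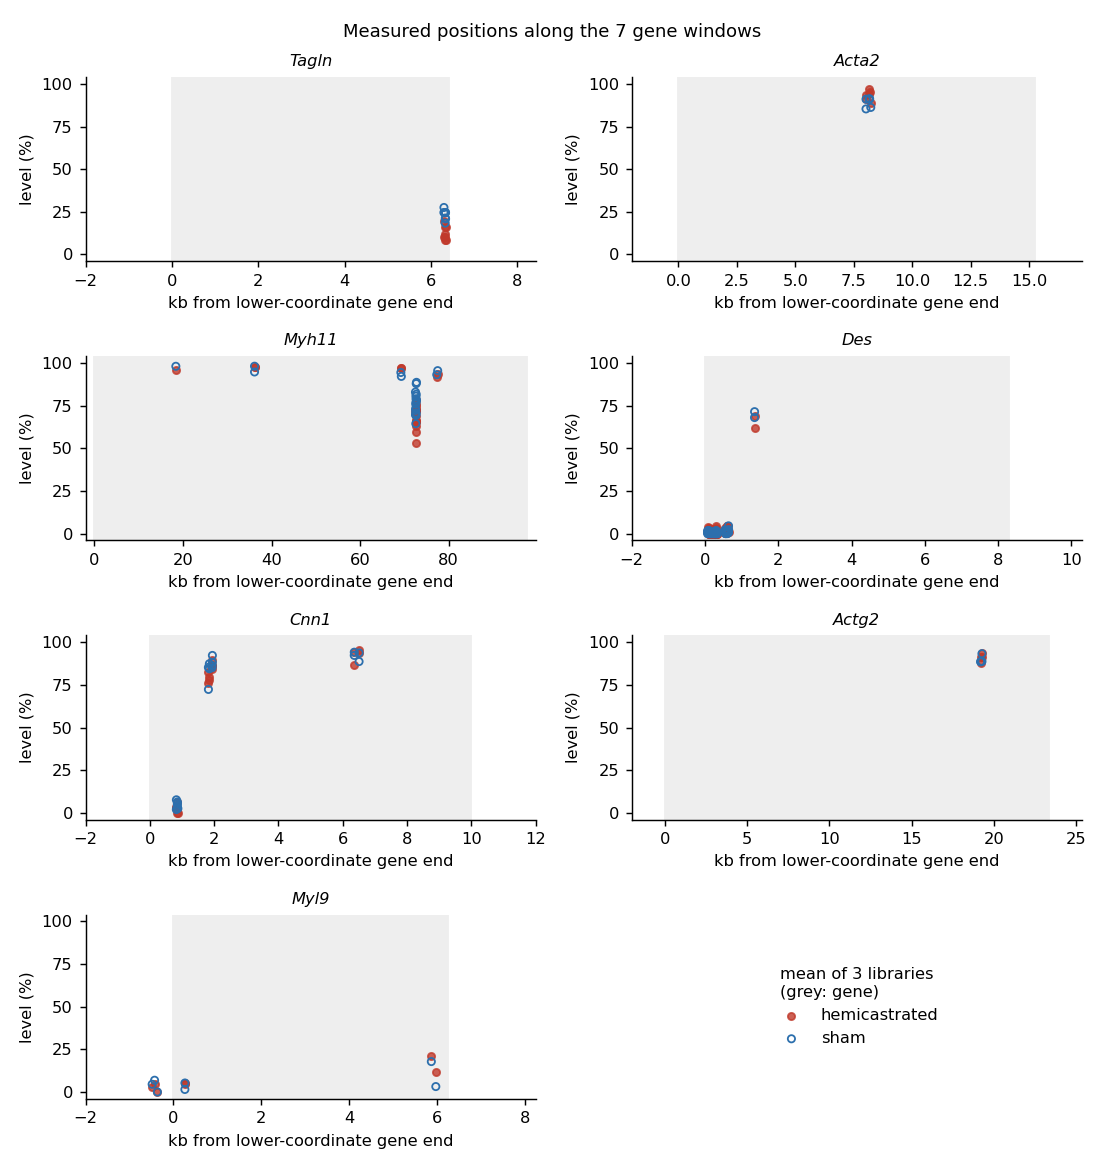
Methylation level in percent at every measured position along each of the 7 gene windows, by distance in kb from the lower-coordinate end of the gene, with filled red points for the mean of 3 hemicastrated libraries, open blue circles for the mean of 3 sham libraries and the gene in grey. The group means of Des reach 61.9% to 71.5% at its last CpG, and those of Cnn1 are at most 7.62% in its first cluster and at least 72.4% in its second, while Acta2 and Actg2 were measured in 1 cluster each near 90.5% to 91.3%.

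Of the 7 windows, 4 had the higher and 3 the lower mean in hemicastrated mice, while 50.1% of all windows were lower. The groups did not overlap in 1 window with hemicastrated lower, Tagln, and in 2 with hemicastrated higher, Acta2 and Des, where 4.84% and 4.7% of all windows had such groups. Over single positions the counts were 74 lower, 72 higher and 9 equal, the last being positions of Des and Myl9 with no methylated read in any library. The 10 positions without overlap in the lower direction were 6 at Tagln, 3 at Myh11 and 1 at Cnn1, and 2.77% of all sites had such groups. The 5 in the higher direction were 2 at Acta2 and 3 at Des, and 2.41% of all sites had such groups. Positions with nearly equal read numbers, as at Tagln and Myh11, are not independent in these counts.

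**Figure D5:**
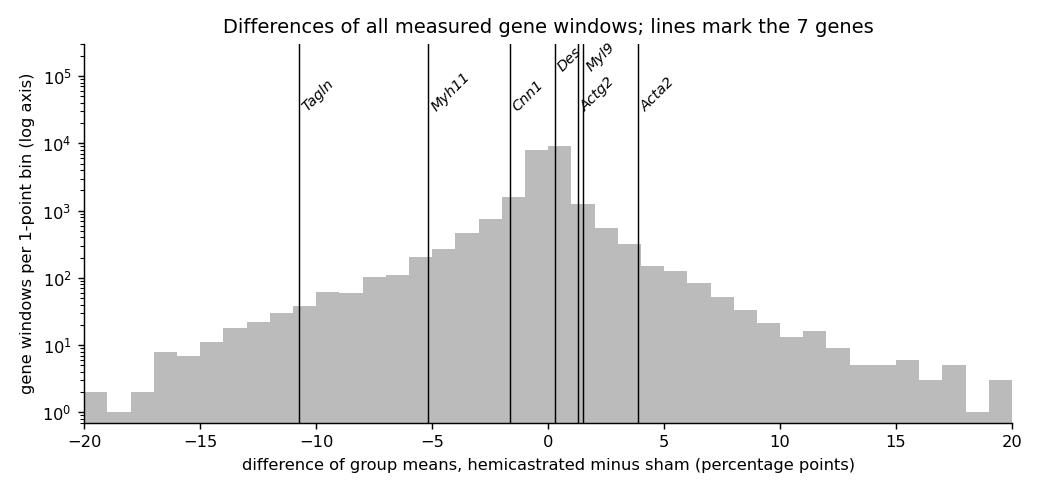
Number of gene windows (log axis) by the difference of group means, hemicastrated minus sham, in bins of 1 percentage point, with a line for each of the 7 genes. Tagln lies at -10.7 points and Acta2 at 3.87 points, and 24 windows beyond 20 points in either direction are not drawn.

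Other genes of smooth muscle contraction and its control were read from a list of 25, of which 24 were measured. Of these, 14 had the higher and 10 the lower mean in hemicastrated mice, 0 passed edgeR's test or limma, and 0 had an unadjusted p below 0.05. The groups did not overlap in 2 of the 24 with hemicastrated lower and in 3 with hemicastrated higher. Among all windows 4.84% and 4.7% had such groups. The median difference of the 24 was 0.111 points, against -0.00143 points over all windows. Mylk, the kinase that phosphorylates the myosin light chain, had the smallest p in edgeR's test (unadjusted p = 0.132), with 92.0%, 92.2% and 92.4% in hemicastrated mice, against 93.3%, 94.2% and 94.0% in sham-operated mice. Ppp1r14a, an inhibitor of myosin phosphatase, had 14.8% ± 0.869 in hemicastrated mice, against 14.6% ± 0.720 in sham-operated mice (SD, n = 3 each).

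Paralogs of the 7 genes, used in other muscle or in nonmuscle cells, formed a list of 16, of which 15 were measured. Their median level was 6.33%, with 7 higher and 8 lower. The groups did not overlap in 1 with hemicastrated lower and in 1 with hemicastrated higher, beside 4.84% and 4.7% of all windows. Of the 15 genes, 0 were called by edgeR or limma, and 1 had an unadjusted p below 0.05 in edgeR's test. That gene was Cnn2, a calponin of nonmuscle cells, with 5.03%, 4.23% and 5.002% in hemicastrated mice, against 6.16%, 7.31% and 7.09% in sham-operated mice over 95 positions (edgeR unadjusted p = 0.00194, adjusted p = 0.999989). The next, Acta1 of skeletal muscle, had 82.5% ± 1.41 in hemicastrated mice, against 81.6% ± 3.81 in sham-operated mice (SD, n = 3 each), and its groups overlapped. The nonmuscle relative of Tagln, Tagln2, had 1.14% ± 0.400 in hemicastrated mice, against 1.15% ± 0.265 in sham-operated mice, chosen here for its name and not by its p.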

How the data were processed

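Right testes of 3 hemicastrated and 3 sham-operated KM mice were profiled by reduced representation bisulfite sequencing (MspI digestion, size selection, bisulfite conversion, Illumina GAII, per the labels' protocols). Bismark, TopHat2 2.0.11 and the build GRCm38 are named in the submitters' processing notes, with no role for each. The sources used here name neither trimming nor duplicate removal, so PCR copies may be counted. The authors deposited raw methylated and unmethylated counts per cytosine, and the level in percent, which equals the methylated count over all calls at each position.

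Autosomal, X and Y positions read 10 times or more in each of the 6 libraries entered. Genes and promoter sequences came from RefSeq tables of GRCm38.p6. A gene window (2000 bp either side, at least 3 positions) had as its level the unweighted mean over positions. The model of edgeR 4.0.16 (R 4.3.3) had a column per library, a methylation term and the tested term of methylation by group. In the single-site fit all sites shared 1 spread, so a site's own spread between mice did not enter its test. Single values were compared by exact permutation (scipy 1.17.1), and limma 3.58.1 used log2 ratios with 1 added to each count. Adjacent positions were taken as the strands of 1 CpG. Clusters were split at gaps over 200 bp.

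The members and lists were chosen with earlier results of these data known. The rule for names took all 7 genes, every Tagln position, at the other genes the 2 positions with the smallest p and the lowest and highest, for likeness the 3 highest r, and in each list the 2 smallest p. Alternatives were other coverage minimums, window sizes, models, weights and left-out libraries. All p-values come from the mice of 1 study. Those of edgeR's window test and of limma weigh the spread between these mice. Those of the single-site test weigh 1 spread shared by all sites and not a site's own.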

Additional observations from a re-analysis of the deposited data

How the results depend on the processing

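No member window and no member position was called under any alternative run (12 and 9 of them). The Tagln difference of -10.7 points kept its direction under all 13: -12.8 points at a minimum of 20 reads, which left its 4 higher-numbered positions, -12.1 with every call weighted equally, -8.67 and -12.8 on the 2 strands (chosen after seeing the data), and -7.90 to -12.4 with a library left out. Coverage of at least 5 reads or 1000 bp flanks left its positions as they were, and the replicate block left its group means as they were. Leaving out a library could not turn the direction, since every hemicastrated library was below every sham library. The minimum of 20 reads gave the same positions as the second strand. The 2 strands could not turn the direction either, since every Tagln position had the lower mean in hemicastrated mice. Only the call weights could therefore test it.

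Some uncalled values changed sign. With calls weighted equally Des was at -0.0503 points. With a library left out, the windows ranged from -0.206 to 2.76 points at Myl9 and from -0.530 to 2.27 at Actg2. Position 45935930 of Tagln ranged from -10.4 to 0.397 points, and the Actg2 positions 83532105 and 83532181 from -1.20 to 5.89 and from -1.23 to 5.75. The cause was not tested.

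Over all genes, 0 to 1 windows were called with a library left out and 1, Gm52115, with the replicate block. Myl9 kept too few positions for a window at a minimum of 20 reads. A robust prior called 446 sites instead of 706 (cause not tested), and left-out libraries 589 to 773. Same-numbered mice were not taken as pairs in the main fit. Their deviations over windows correlated at 0.0545, 0.0978 and 0.0259, and those of differently numbered mice at -0.109 to 0.0536. Of the 6 samples, 5 correlated best with their own number. These values are no reason against pairing, and whether the numbers mark pairs was not tested. The block left the Tagln difference at -10.7 points (exact sign-flip permutation p = 0.25, the smallest possible). Some Tagln levels rest on 13 reads.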
